A study of Mus musculus with 12 samples.

Results

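The respiratory chain subunits described here are the nuclear genes whose symbols start with Nduf and a subunit letter, Uqcr, Cox4 to Cox8 with a subunit letter, or Atp5. The rule used symbols only and no measured value, though it was chosen with earlier results of these data known. It found 75 of the 17112 genes in the table, of which 37 belong to complex I, 8 to complex III, 14 to complex IV and 16 to the ATP synthase (complex V). Of the 75, 70 reached 1 CPM (reads of a gene per 1 M reads) in at least 2 libraries and were tested. The 5 others were Ndufb4 and Ndufs5 of complex I and Cox6a2, Cox7c and Cox8b of complex IV. By its letters the rule leaves out all of complex II (Sdha, Sdhb, Sdhc and Sdhd), cytochrome c (Cycs), Cyc1, Cox4i1 and Ndufab1, whose values are given further on.

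The 12 RNA-seq libraries each came from the whole small intestine of 1 C57BL/6 mouse, per the labels, in 6 groups of 2. The groups combined the Zip4 genotype (wild type, WT, heterozygous, HET, and knockout, KO) with a dietary zinc complex that held the metal at its amino or at its hydroxy end. Zip4 is the product of Slc39a4, which imports zinc into the enterocyte. The WT and HET diets held 15 ppm zinc and the KO diets 40 ppm per the sample labels, while the text on the series gives 15 ppm for all, so genotype and zinc level cannot be told apart where KO is compared. The WT mice were 210 to 237 days old and the KO mice 198 to 240 days. The HET mice were 363 days (HET amino 1), 141 days (HET amino 2), 338 days (HET hydroxy 1) and 143 days (HET hydroxy 2). Libraries are called by group and number (HET amino 2), and 4 values given for a genotype are in the order amino 1, amino 2, hydroxy 1, hydroxy 2.

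The steps between low values put 3 reads of a library at 0.0773 to 0.115 CPM. Slc39a4 itself stood at 187.5 to 256 CPM in WT, 117 to 267 in HET and 42.0 to 91.6 in KO. Enterocyte markers (14 genes, among them Vil1 and Fabp1) summed to 27800 to 55800 CPM in the 12 libraries, and 7 pancreas markers summed to 0 to 2.07 CPM. HET amino 2 stood apart with 1539 genes at 0 against 478 to 860 in the other 11 libraries. HET amino 2 and WT hydroxy 1 were also the libraries with high Fabp6, and fits without both are given in the closing section. Whether these libraries held the same parts of the small intestine as the others was not tested. The sex-linked genes of both KO amino libraries contradict their labelled sex, and both carry the same group label. In whole tissue, fewer cells of a type and less RNA per cell cannot be told apart.

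Complex I takes electrons from NADH and complex III passes them from ubiquinol to cytochrome c, while complex IV hands them to oxygen. The protons that these complexes pump drive the ATP synthase. Each complex joins a few subunits encoded in the mitochondrion to many encoded in the nucleus, and absorptive enterocytes, which spend ATP on nutrient and ion transport, hold many mitochondria. In complex I, core subunits carry the redox or catalytic centres, and accessory (supernumerary) subunits, there and in the other complexes, serve assembly and stability.

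Per kilobase of transcript, the highest mean levels over the 12 libraries were those of Cox6a1 (917 CPM per kb), Atp5b (871), Atp5g3 (814), Atp5a1 (629) and Cox8a (620.5). Atp5a1 and Atp5b encode the alpha and beta subunits that form the catalytic head of the ATP synthase. In complex III, Uqcrh, the hinge protein near cytochrome c1, led at 390.5 CPM per kb, followed by the core protein gene Uqcrc1 at 301 CPM per kb. In complex I, Ndufa4 led at 286 CPM per kb, a subunit that later work assigned to complex IV, and Ndufb9 followed at 220 CPM per kb. The iron-sulphur core subunit Ndufs1, in the arm that takes electrons from NADH, stood at 52.0 CPM per kb and the flavin-binding Ndufv1 at 109 CPM per kb. The 37 complex I genes thus spanned levels from 0.409 (Ndufs5) to 286 CPM per kb.

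Where the chain has tissue isoforms, the ubiquitous form was the higher one in each pair with a muscle or testis form. Cox6a1, the ubiquitous form, stood at 917 CPM per kb and its muscle form Cox6a2 at 0.414. Cox8a, the ubiquitous form, stood at 620.5 CPM per kb and its muscle form Cox8b at 0.654. The ubiquitous Cox6b1 stood at 394 CPM per kb and its testis form Cox6b2 at 5.05. Cox7a is the pair in which the muscle form stood nearest to the ubiquitous one, with Cox7a1 at 107 CPM per kb and Cox7a2 at 180. Cox7a1 ranged from 43.2 to 52.0 CPM in WT, 12.4 to 40.5 in HET and 39.1 to 65.0 in KO, and the skeletal and heart muscle marker genes listed (10 in the table) summed to 8.56 to 77.1 CPM per library. Of the 6 of these tested, Acta1 (skeletal actin) alone passed an adjusted p under 0.05 in limma for KO against HET, at 2.83. Over all genes, 3.44% were higher at that threshold. The 6 had a median of 0.14, with 4 above 0 and 2 below. The part of muscle cells in the Cox7a1 level was not tested. Cox7a2l, a factor that joins complexes III and IV into supercomplexes and of which C57BL/6 mice carry a short form, stood at 112.5 CPM per kb. Of the 3 genes for the c subunit of the ATP synthase rotor, Atp5g3 stood at 814 CPM per kb, Atp5g2 at 4.995 and Atp5g1 at 3.06, the last over an annotated transcript of 4715 bases.

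**Figure D1:**
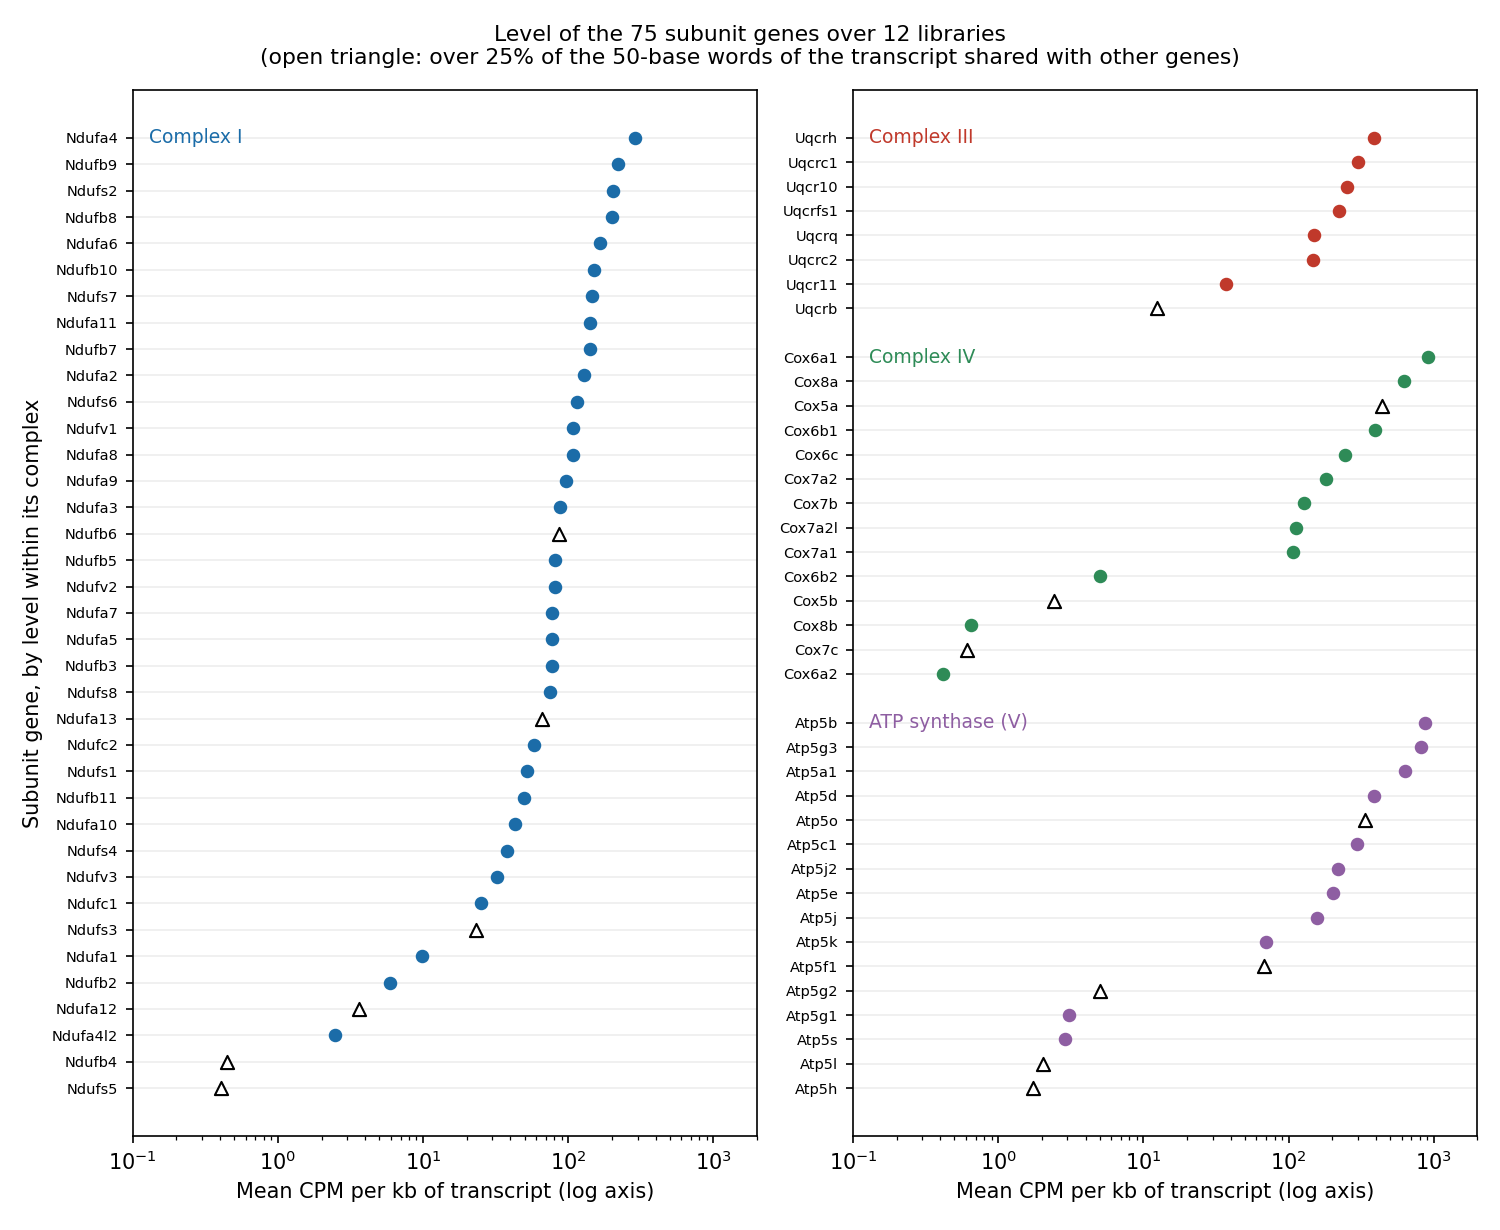
Mean CPM per kb of transcript over 12 libraries (log axis) for each of the 75 subunit genes, grouped by complex and sorted by level. Open triangles mark genes with over 25% of the 50-base words of their transcript found in other annotated genes, and they include Ndufs5, Ndufb4, Cox7c, Atp5h and Atp5l near the lower end.

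Several subunits that every complex needs were listed at very low values. Cox7c, an obligatory subunit of complex IV, stood at 0.329 CPM, Atp5h and Atp5l of the ATP synthase stalk and membrane part at 1.08 and 1.11, Cox5b at 2.09 and Ndufa12 at 4.03. Transcripts were broken into words of 50 bases to see how much of each also occurs in another annotated gene. Among the 15 subunit genes with a mean under 10 CPM, the median share of such words was 26.2%, and 9 of the 15 had over 25%. Among the 60 with 10 CPM or more, the median share was 1.33%, and 6 had over 25%. The largest shares were 87.4% for Atp5g2, 84.8% for Atp5l, 53.0% for Cox7c and 50.5% for Atp5h, and Atp5l shared words with 14 other genes, 12 of them annotated pseudogenes. No source used here says how the authors' counting treated reads that match several genes, so the levels of these genes are uncertain. Ndufa1, a short subunit of the complex I membrane arm, was also low (4.11 CPM) with a share of 0%.

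Summed over all 75 genes, the chain subunits took 12160 ± 569 CPM in WT, 9631 ± 1662 in HET and 14040 ± 1804 in KO (SD, n = 4 each). The sums were 11650, 12940, 11840 and 12200 CPM in WT, 9534, 7341, 10520 and 11130 in HET and 11690, 13760, 14780 and 15940 in KO. Every HET library lay below every WT library, whereas KO and WT overlapped through KO amino 1. Complex I summed to 3090 ± 157 CPM in WT, 2324 ± 483 in HET and 3565 ± 704 in KO. Complex III summed to 1673 ± 101 CPM in WT, 1328 ± 222 in HET and 1964 ± 287 in KO. Complex IV, the one with the largest gap between the HET and WT means relative to its level, summed to 2036 ± 84.4 CPM in WT, 1384 ± 399 in HET and 2368 ± 375 in KO. The ATP synthase summed to 5361 ± 295 CPM in WT, 4594 ± 583 in HET and 6148 ± 500 in KO, and 1 HET library, HET hydroxy 2 at 5197 CPM, lay within the WT range of 5144 to 5791 CPM.

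**Figure D2:**
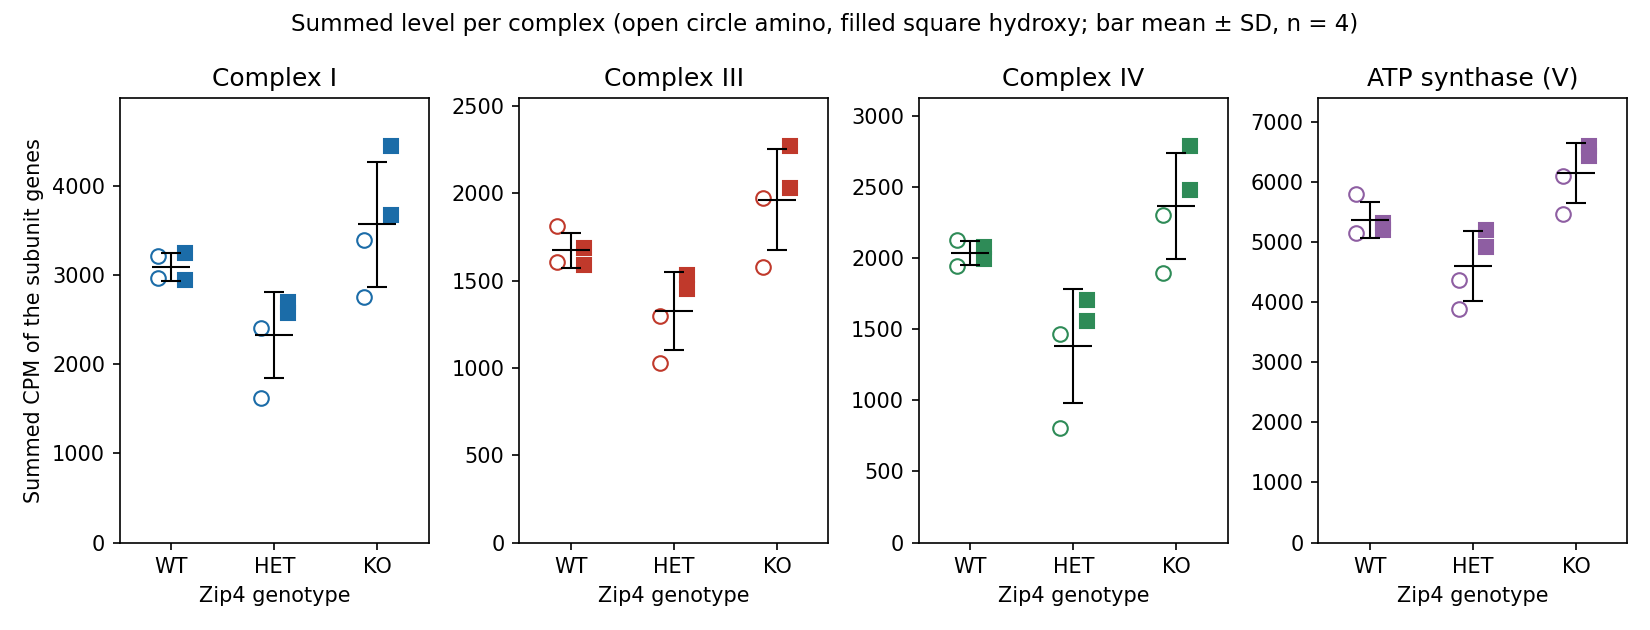
Summed CPM of all listed subunit genes of each complex, per library (open circles amino, filled squares hydroxy), with the mean ± SD of the 4 libraries of a genotype. HET amino 2 is the lowest library in all 4 panels, at 1623 CPM in complex I and 803 CPM in complex IV.

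The spread between groups rested on a few libraries. HET amino 2 was the lowest of the 12 libraries in 61 of the 70 tested subunits, and KO hydroxy 2 was the highest in 50 and KO hydroxy 1 in 11. WT libraries were the highest in 3 subunits and the lowest in 2. The 3 subunits with the largest spread over the 12 libraries were Atp5k, Uqcr11 and Ndufa3, all small accessory subunits of membrane parts. Atp5k (subunit e of the ATP synthase) stood at 1.23 CPM in HET amino 2 and 15.5 to 40.6 CPM in the other 11. Uqcr11 stood at 1.87 CPM in HET amino 2 and 9.30 to 29.2 in the others, and Ndufa3 at 9.84 and 29.1 to 60.1 CPM. The 3 with the smallest spread were Atp5b, Uqcrc2 and Ndufa10, for which HET amino 2 stood at 1499, 242 and 75.9 CPM, within the range of the other HET libraries for Atp5b and Uqcrc2 and just below it for Ndufa10.

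**Figure D3:**
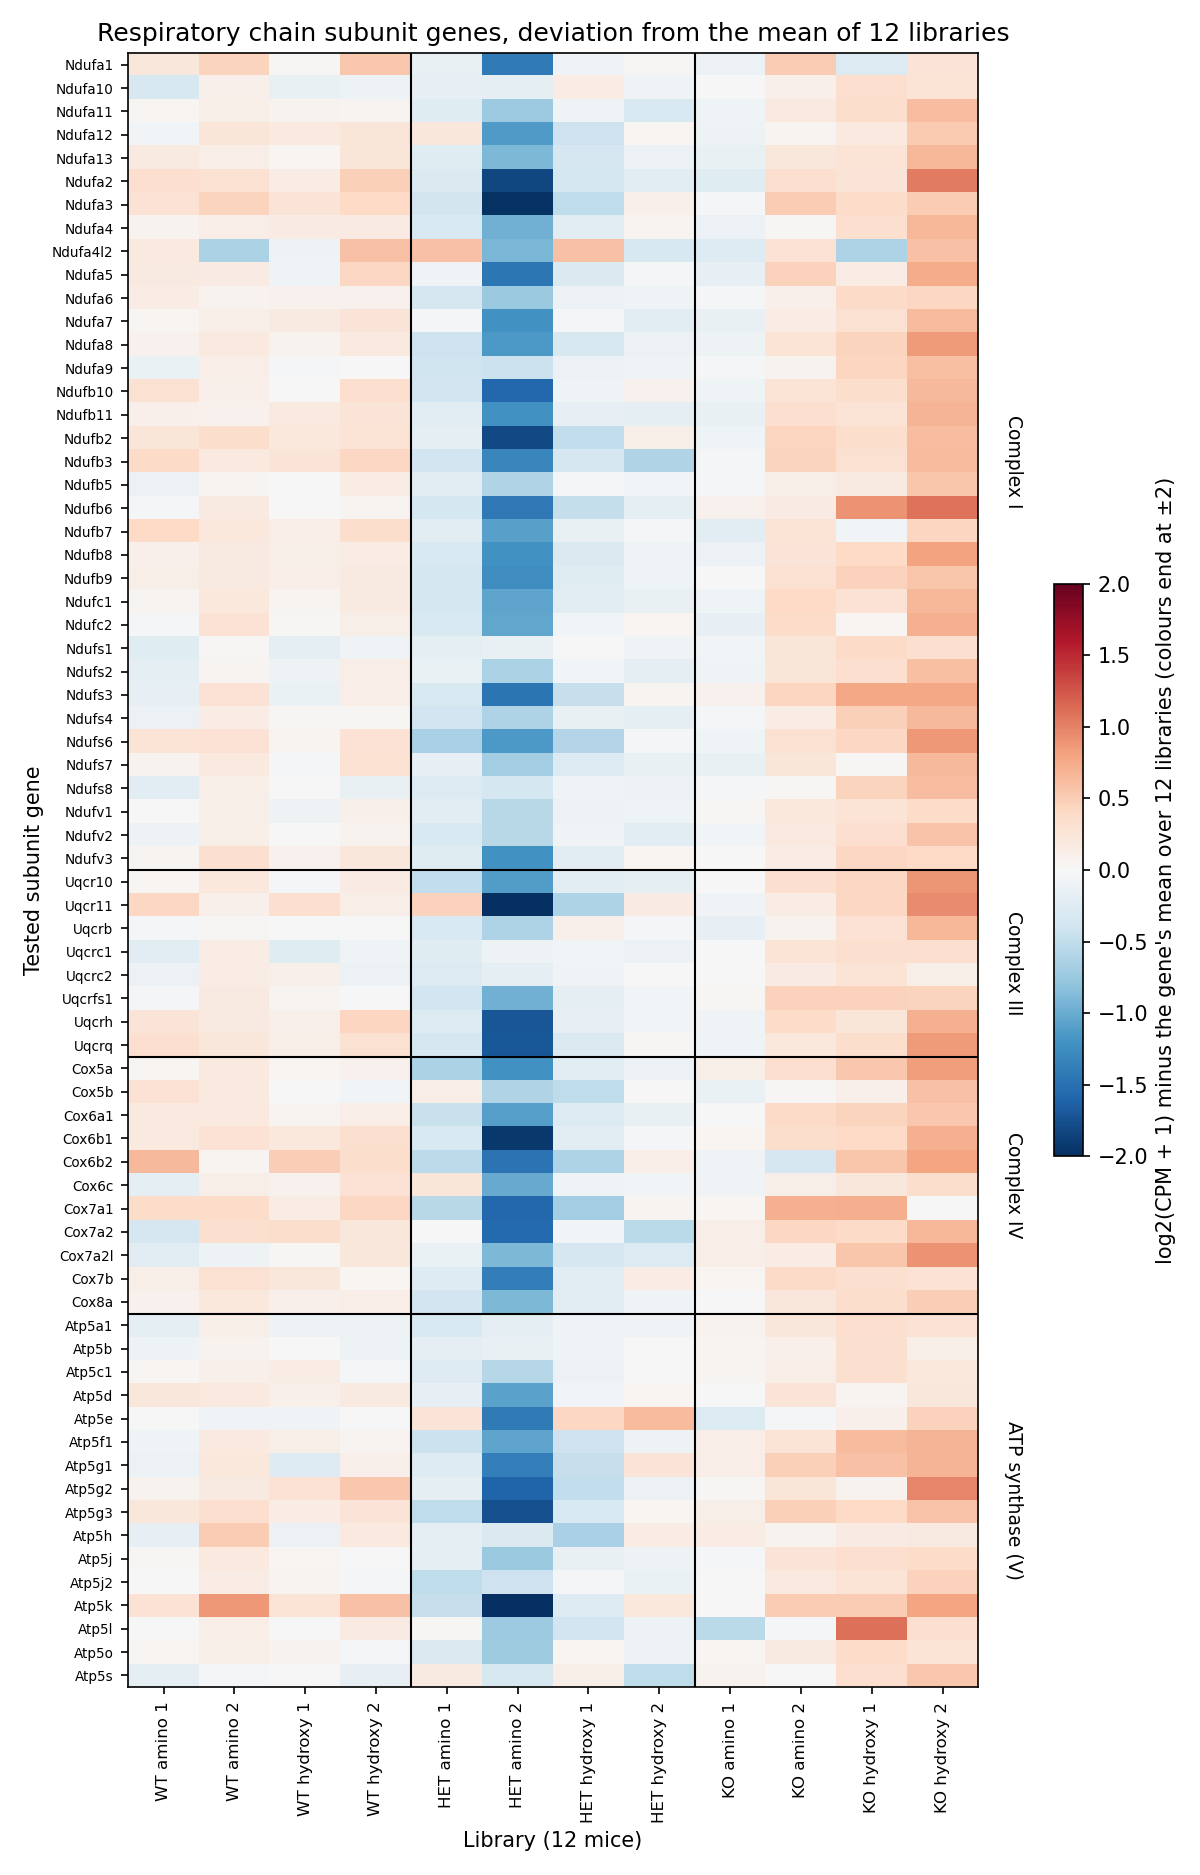
Each row is a tested subunit gene and each column a library, and the colour is log2(CPM + 1) minus that gene's mean over the 12 libraries, with colours ending at 2 in either direction. The HET amino 2 column is blue in nearly all rows and the KO hydroxy columns are red, while Ndufs1, Uqcrc1, Atp5a1 and Atp5b stay pale in HET amino 2.

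KO against HET was the comparison with the most subunits called, meaning an adjusted p under 0.05 in limma (Benjamini-Hochberg over 14001 genes). Here 23 of 70 subunits were higher in KO and 0 were lower, against 3.44% of all genes called higher. At an unadjusted p under 0.05, 56 of 70 were higher, against 13.3% of all genes. The median difference over the 70 was 0.64 on the log2(CPM + 1) scale and all 70 differences were above 0, while the median over all genes was −0.07. Every KO library lay above every HET library in 31 of the 70 subunits (44.3%), against 6.21% of all genes. The 23 called differences ran from 0.47 to 1.17 (adjusted p from 0.0197 to 0.0478 in limma). By complex, 14 of 35 tested subunits of complex I were called higher, 2 of 8 of complex III, 4 of 11 of complex IV and 3 of 16 of the ATP synthase. Their complexes had medians of 0.61, 0.81, 0.84 and 0.49. For the same 70 subunits the median was −0.507 for HET against WT and 0.135 for KO against WT. HET and KO also differ in age and, per the sample labels, in zinc level.

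These calls depended on single libraries, as did the calls over all genes. The count was 53 without HET amino 1, 3 without HET amino 2 (Atp5f1, Cox5a and Ndufb6), 0 without HET hydroxy 1 and 11 without HET hydroxy 2. It was 0 without KO amino 1, KO amino 2 or KO hydroxy 2 and 2 without KO hydroxy 1, and 6 to 9 when a WT library was left out, since WT adds to the estimate of the spread. Over all genes, 957 calls in either direction became 1396 without HET amino 1, 165 without HET amino 2, 1 without HET hydroxy 1, 1016 without HET hydroxy 2, 29 without KO amino 1, 27 without KO amino 2, 108 without KO hydroxy 1 and 138 without KO hydroxy 2. The median difference over subunits stayed between 0.48 and 0.82 over these 12 fits, and 68 to 70 of the 70 differences were above 0 in each. Without both KO amino libraries, where KO hydroxy is set against HET hydroxy, 0 were called at a median of 0.61. Of the 23 called subunits, 4 (Ndufb6, Ndufs3, Cox5a and Atp5f1) had over 25% of their 50-base words in other genes, as had 8 of the 47 not called. Ndufb6, Cox5a and Atp5f1 are also the subunits named above for the fit without HET amino 2.

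Among the accessory subunits of complex I, 11 of 26 tested were called higher in KO than in HET, among them Ndufb6, Ndufs4 and Ndufs6. Ndufb6, in the membrane arm, stood at 51.4, 59.4, 52.9 and 54.3 CPM in WT, 40.7, 18.8, 37.2 and 46.0 in HET and 55.8, 59.1, 98.0 and 112 in KO. The KO amino libraries lay within the WT range and both KO hydroxy libraries far above it, and no HET library reached WT. The difference between KO and HET was 1.17 (SE 0.21, adjusted p = 0.0233 in limma), with an adjusted p of 0.0077 to 0.101 over leaving out each library. Ndufs4, which is needed for the last steps of complex I assembly and whose loss in mice gives a model of Leigh syndrome, stood at 57.3, 69.1, 63.3 and 63.1 CPM in WT, 47.6, 40.4, 56.0 and 54.9 in HET and 61.2, 69.0, 86.6 and 98.0 in KO. Again HET lay below both other genotypes without overlap, and KO minus HET was 0.64 (SE 0.12, adjusted p = 0.0239 in limma, 0.0153 to 0.103 over leaving out each library). Ndufs6, a subunit that binds zinc, stood at 75, 75.2, 64.0 and 75.3 CPM in WT, 39.0, 27.3, 40.7 and 60.7 in HET and 58.2, 76.0, 82.7 and 113 in KO. KO amino 1 fell just under HET hydroxy 2, so KO and HET overlapped, and their difference was 0.98 (SE 0.18, adjusted p = 0.0253 in limma, 0.0141 to 0.106 over leaving out each library).

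The 7 core subunits of complex I had a smaller median difference between KO and HET (0.51) than the 26 accessory ones (0.69), a gap that was not tested, and their transcripts are longer (medians of 1623 and 748 bases). Ndufs3, Ndufs8 and Ndufv2 were called higher in KO (1.06, 0.47 and 0.55), all parts of the arm that carries electrons from NADH. Ndufv1 stood at 182 ± 12.7 CPM in WT, 151 ± 20.8 in HET and 208 ± 20.6 in KO (SD, n = 4), a difference of 0.46 that missed the threshold (adjusted p = 0.0543 in limma). Ndufs1 stood at 126 ± 10.7 CPM in WT, 127 ± 7.21 in HET and 162 ± 20.9 in KO (0.34, adjusted p = 0.105 in limma), so that its HET and WT libraries overlapped fully. Ndufa4 stood at 186 ± 6.34, 136 ± 36.8 and 202 ± 51.3 CPM (0.58, adjusted p = 0.0604). Its paralog Ndufa4l2, known as a gene induced by low oxygen, stood at 2.28 ± 1.13, 2.37 ± 1.54 and 2.27 ± 1.18 CPM, a difference of 0.01 with an SE of 0.43.

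In complex III, Uqcr10 and Uqcrfs1 were called higher in KO than in HET. Uqcr10, a small accessory subunit, stood at 108, 122, 103 and 117 CPM in WT, 74.3, 47.9, 90.5 and 91.1 in HET and 105, 131, 140.4 and 193 in KO. HET overlapped neither other genotype, and KO minus HET was 0.91 (SE 0.17, adjusted p = 0.0253 in limma, 0.00955 to 0.104 over leaving out each library). Uqcrfs1, the Rieske iron-sulphur protein and a redox centre of the complex, stood at 285, 333, 303 and 291.5 CPM in WT, 224, 149, 257 and 281 in HET and 299, 404.5, 404 and 401 in KO. KO lay above HET in every library, by 0.75 (SE 0.17, adjusted p = 0.0366 in limma, 0.0133 to 0.139 over leaving out each library). The core proteins Uqcrc1 and Uqcrc2 had smaller differences, of 0.37 (adjusted p = 0.161) and 0.27 (adjusted p = 0.214). Uqcrc1 stood at 462 ± 60.8 CPM in WT, 449 ± 24.6 in HET and 582 ± 62.5 in KO, and HET amino 2, at 456 CPM, lay between the other HET libraries.

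In complex IV, Cox5a, Cox7a2l, Cox6a1 and Cox8a were called higher in KO than in HET, and Cox5a had the smallest p of all subunits. Cox5a, a matrix-side subunit, stood at 276, 307, 274 and 285 CPM in WT, 171.5, 115, 228 and 248 in HET and 292, 338, 390.1 and 478 in KO. All 4 HET libraries lay below WT and KO, and KO overlapped WT through KO amino 1. KO minus HET was 1.01 (SE 0.16, adjusted p = 0.0197 in limma), between 0.86 and 1.15 with an adjusted p of 0.00812 to 0.0851 over leaving out each library. Cox7a2l stood at 99.3, 108, 117 and 136 CPM in WT, 105, 61.3, 91.7 and 95.3 in HET and 127, 128, 170 and 215 in KO. HET overlapped WT through HET amino 1 and stayed below KO, by 0.84 (SE 0.17, adjusted p = 0.0299 in limma, 0.00825 to 0.114 over leaving out each library). Cox6a1 stood at 557 ± 26.3 CPM in WT, 368 ± 96.6 in HET and 645 ± 98.4 in KO (0.84, SE 0.18, adjusted p = 0.0337 in limma). Cox8a, the smallest ubiquitous subunit, stood at 364 ± 15.5, 257 ± 57.9 and 402 ± 57.2 CPM (0.66, SE 0.15, adjusted p = 0.0384 in limma). The other named isoforms had differences of like size that missed the threshold, at 1.06 for Cox7a1 (adjusted p = 0.0519), 0.94 for Cox7a2 (0.0886), 1.0 for Cox6b1 (0.0661) and 0.85 for Cox6b2 (0.0909). For Cox6b1 the HET values were 182, 58.9, 193 and 220 CPM, and its difference was 0.60 without HET amino 2.

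In the ATP synthase, Atp5f1, Atp5j2 and Atp5g3 were called higher in KO than in HET. Atp5f1, subunit b of the stalk that holds the catalytic head still, stood at 97.1, 118.5, 112 and 107 CPM in WT, 76.6, 49.5, 77.6 and 95.9 in HET and 113, 125, 161.5 and 166 in KO. HET lay below WT and KO in every library, and KO minus HET was 0.93 (SE 0.16, adjusted p = 0.0220 in limma, 0.00814 to 0.0975 over leaving out each library). Atp5j2, subunit f of the membrane part, stood at 205, 228, 213 and 199 CPM in WT, 143, 153, 200.4 and 186 in HET and 205, 234, 247 and 281 in KO, a difference of 0.50 (SE 0.12, adjusted p = 0.0403 in limma, 0.048 to 0.143 over leaving out each library). Here HET hydroxy 1 reached the WT range. Atp5g3, the c subunit gene with the highest level, stood at 633, 688, 602 and 650 CPM in WT, 382, 160.4, 437.5 and 556 in HET and 590.2, 757, 713.5 and 805 in KO. Its difference was 1.02 (SE 0.26, adjusted p = 0.0478 in limma) and 0.71 without HET amino 2. Atp5g1 and Atp5g2 had differences of 0.93 each that missed the threshold (adjusted p = 0.0651 and 0.107). The catalytic subunits did not pass either: Atp5a1 stood at 1473 ± 133 CPM in WT, 1374 ± 97.8 in HET and 1812 ± 145 in KO (0.40, adjusted p = 0.257), and Atp5b at 1619 ± 93.3, 1543 ± 89.5 and 1845 ± 153 CPM (0.26, adjusted p = 0.471). Every KO library of these 2 genes lay above every HET library, and their SE of 0.21 and 0.22 was above that of Atp5f1. The fit draws the variance of each gene towards a trend over genes of like level. These SE are therefore not the spread of the 2 genes alone, and Atp5b had among the smallest spreads of all subunits.

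**Figure D4:**
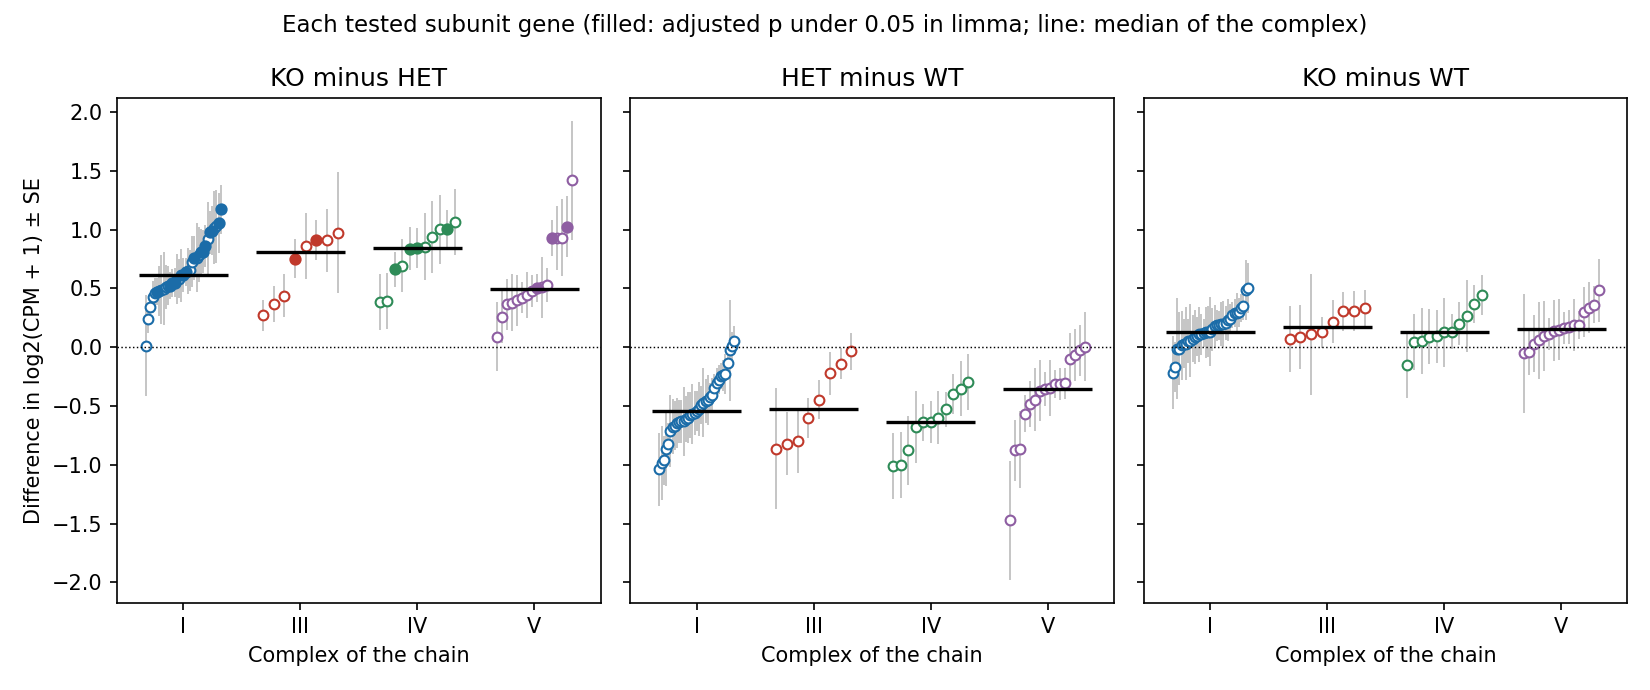
Difference in log2(CPM + 1) with its SE for each tested subunit gene, by complex, in 3 comparisons that share libraries. Filled points (23, all in KO minus HET) have an adjusted p under 0.05 in limma, and the black line is the median of the complex, for example 0.84 in complex IV for KO minus HET and −0.64 for HET minus WT.

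Promoters are shown for subunits that were called higher in KO than in HET, to set the letters of their start regions beside their values. They come from RefSeq (GRCm38.p6), which had entries for 62 of the 75 subunits (67 promoters of 300 bases, from 250 before to 50 after the start). Both strands were searched for 4 short motifs named after factors known to act on chain genes: GCGCA, any base, then GCGC (NRF1), CCGGAAG (ETS family, to which GABPA belongs), AAGATGG (YY1) and GGGCGG (SP1). In 1 of the 67 promoters the matches of 2 motifs overlapped. NRF1 letters occurred in 23.9% of subunit promoters and 4.6% of all 32851 promoters, ETS letters in 20.9% and 8.86%, YY1 letters in 14.9% and 6.34% and SP1 letters in 35.8% and 35.7%. Of the 21 called subunits with an entry, 6 held NRF1 letters, 5 ETS letters, 6 YY1 letters and 9 SP1 letters. The windows shown hold 230 bases each, from 200 before to 30 after the start, for Cox5a, which had the smallest p, and for the called subunit of each complex with the smallest p that holds NRF1 letters in this window, of which complex III had none. Their positions are chr9:57521032-57521261 (Cox5a, plus strand), chr13:73328453-73328682 (Ndufs6, minus), chr5:115348929-115349158 (Cox6a1, minus) and chr2:73911297-73911526 (Atp5g3, minus), written 5′ to 3′ in the direction of the gene. Capitals mark motif matches.
Cox5a: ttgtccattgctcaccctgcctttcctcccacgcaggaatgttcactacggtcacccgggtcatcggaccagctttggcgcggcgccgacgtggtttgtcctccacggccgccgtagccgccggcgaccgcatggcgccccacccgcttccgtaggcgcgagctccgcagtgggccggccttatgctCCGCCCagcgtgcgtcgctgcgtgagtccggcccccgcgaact
Ndufs6: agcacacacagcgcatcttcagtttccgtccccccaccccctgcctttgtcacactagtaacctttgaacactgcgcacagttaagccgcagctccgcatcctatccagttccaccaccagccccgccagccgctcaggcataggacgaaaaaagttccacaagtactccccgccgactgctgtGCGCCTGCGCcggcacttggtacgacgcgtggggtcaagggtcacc
Cox6a1: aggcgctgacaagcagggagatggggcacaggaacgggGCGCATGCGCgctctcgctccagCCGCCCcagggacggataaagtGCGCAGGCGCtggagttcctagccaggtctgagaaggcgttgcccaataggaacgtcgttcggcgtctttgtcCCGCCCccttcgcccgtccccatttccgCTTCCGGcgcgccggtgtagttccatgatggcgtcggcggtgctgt
Atp5g3: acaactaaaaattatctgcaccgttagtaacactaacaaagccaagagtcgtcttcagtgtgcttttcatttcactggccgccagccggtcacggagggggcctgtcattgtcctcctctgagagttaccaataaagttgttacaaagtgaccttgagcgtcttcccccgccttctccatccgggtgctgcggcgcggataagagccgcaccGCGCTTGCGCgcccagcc
Cox5a held SP1 letters alone, from −13 to −8. Ndufs6 held NRF1 letters from −16 to −7. Cox6a1 held NRF1 letters at 2 places (from −162 and from −117), SP1 letters at 2 (from −139 and from −44) and ETS letters from −16. Atp5g3 held NRF1 letters from 13 to 22, after the start. A match is a description of letters and no sign of binding.

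HET against WT called 0 subunits, as it called 0 of all genes (0%) in limma. At an unadjusted p under 0.05, 45 of 70 subunits were lower in HET and 0 higher, against 5.76% of all genes lower. The median over the 70 was −0.51, with 67 below 0, while the median over all genes was 0.08. Every HET library lay below every WT library in 36 of 70 subunits (51.4%), against 3.81% of all genes. By complex the medians were −0.54 for complex I, −0.52 for complex III, −0.64 for complex IV and −0.35 for the ATP synthase. Cox5a stood at −0.64 (SE 0.16, adjusted p = 0.207), Ndufs6 at −0.83 (SE 0.18, adjusted p = 0.207) and Atp5k at −1.47 (SE 0.51, adjusted p = 0.248). Ndufs1 stood at 0.01 and Uqcrc1 at −0.04. Without HET amino 1, 17 subunits were called lower, among 89 of 13847 genes called lower in that fit, and they included Cox5a, Ndufb6, Cox6b1, Atp5g3 and Uqcrq. Without HET amino 2, 0 subunits were called, at a median of −0.31.

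KO against WT called 0 subunits and 4 of all genes (0.0286%). At an unadjusted p under 0.05, 9 subunits were higher in KO, against 6.8% of all genes. These were Ndufa9, Ndufa10, Ndufb6, Ndufs1, Ndufs4 and Ndufs8 of complex I, Cox5a and Cox7a2l of complex IV and Atp5f1, with differences from 0.28 (Ndufa9) to 0.50 (Ndufb6). The median over the 70 was 0.13 with 63 above 0, and 1 subunit, Atp5s, had every KO library above every WT library, against 2.92% of all genes. The median was 0.07 without KO amino 2, 0.23 without KO amino 1, 0.22 without KO hydroxy 1 and 0.33 without both KO amino libraries. Fewer than these 9 subunits passed an unadjusted p of 0.05 when any single KO or WT library was left out, which leaves a group with a single library. Of 15 proliferation markers, 11 were higher in KO than in WT at an unadjusted p under 0.05 (median 0.61), with 0 called in limma, and their part in the subunit values was not tested. The comparisons of KO with HET and of HET with WT share the HET libraries.

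The hydroxy complex against the amino complex, as a mean over genotypes, called 0 subunits and 0% of all genes, with 16 subunits higher at an unadjusted p under 0.05 against 6.93% of all genes. The median was 0.27, with Cox5a at 0.39 (SE 0.13), Ndufa4 at 0.39 (SE 0.13) and Ndufs4 at 0.28 (SE 0.10), each with an adjusted p of 0.544. The median was 0.16 without HET amino 2, with 5 subunits higher at an unadjusted p under 0.05, and 0.42 without HET amino 1, with 54. In WT the median was −0.02 over 70 subunits and 0 were called (0% of all genes). No subunit passed an unadjusted p of 0.05 there, against 1.03% of all genes in either direction. Cox5a, for example, stood at 291 ± 22.2 CPM with the amino and 280 ± 7.62 CPM with the hydroxy complex in WT (SD, n = 2).

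In KO, 0 subunits were called (0% of all genes), and 7 were higher with the hydroxy complex at an unadjusted p under 0.05, against 9.73% of all genes, a share near the background. The median was 0.35. Ndufb6 stood at 57.4 ± 2.35 CPM in KO amino and 105 ± 9.76 in KO hydroxy (SD, n = 2, difference 0.86, SE 0.30, adjusted p = 0.304), and Ndufs4 at 65.1 ± 5.54 and 92.3 ± 8.07 CPM (0.50, SE 0.17, adjusted p = 0.304). Over all 70 the median was 0.25 without KO hydroxy 2 and 0.20 without KO amino 1, where the medians over all genes were −0.02 and 0.07. In the same comparison, 6 of 7 B cell markers (median 1.603) and 11 of 15 proliferation markers (median 0.94) were higher with the hydroxy complex at an unadjusted p under 0.05, with 0 called in limma, and enterocyte markers stood at a median of −0.58. Their part in the subunit values was not tested. In HET, 0 were called (0% of all genes) and 18 were higher with the hydroxy complex at an unadjusted p under 0.05, against 2.34% of all genes, at a median of 0.51. Cox5a stood at 143 ± 40.3 CPM in HET amino and 238 ± 14.0 in HET hydroxy (0.76, SE 0.22, adjusted p = 1), and Atp5g3 at 271 ± 157 and 497 ± 83.7 CPM. Leaving out HET amino 2 moved the HET median to 0.17, and leaving out HET amino 1 moved it to 0.90, where the medians over all genes were −0.07 and 0.13. The effect of the complex differed between KO and WT in 0 subunits (0% of all genes), with 2 higher in KO at an unadjusted p under 0.05 (Ndufs8 and Ndufa9) against 1.69% of all genes, and between HET and WT in 0 (0%), with 1 (Cox5a) against 0.629%. The medians of these differences were 0.33 and 0.47. The first was 0.20 without KO amino 1, and the second ranged from 0.175 without HET amino 2 to 0.89 without HET amino 1.

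Chain transcripts are short, with a median of 824 bases against 2981 bases for all tested genes. The median over all genes with short transcripts, the subunits among them, moved in the same libraries. Among all genes under 800 bases (467), the median deviation from the 12-library mean was −0.74 in HET amino 2 and 0.57 in KO hydroxy 2, and among the 34 subunits of that length it was −1.23 and 0.65. Among all genes of 3000 bases or more (6860), the medians were 0.13 and −0.04. Between KO and HET, all genes under 800 bases stood at a median of 0.49 and the 34 subunits at 0.82. From 800 to under 1500 bases all genes stood at 0.33 and 20 subunits at 0.52, and from 1500 to under 3000 bases at 0.07 and 14 subunits at 0.43. At 3000 bases or more all genes stood at −0.27, while the 2 subunits of that length, Atp5g1 and Ndufb2, stood at 0.92, and in HET amino 2 the medians were 0.13 and −1.59. Each length is that of a single annotated transcript per gene, here 4715 bases for Atp5g1 and 4371 for Ndufb2. Whether the tissue held these long forms was not tested, so the 2 genes may be in the wrong range. With the trend on transcript length taken out of each library, a setting chosen after seeing the data, 2 subunits (Atp5f1 and Ndufb6) were called in KO against HET and the median was 0.36. In that fit 183 of 14001 genes were called higher, and the median over all genes was 0.02. The medians by complex were then 0.36, 0.38, 0.38 and 0.14 for I, III, IV and V, and without HET amino 2 as well 0 were called at a median of 0.28. HET against WT stood at −0.26 with the trend removed, and the hydroxy effect at 0.02 over genotypes and at −0.01 in KO. The part of RNA quality or library preparation in this was not tested.

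**Figure D5:**
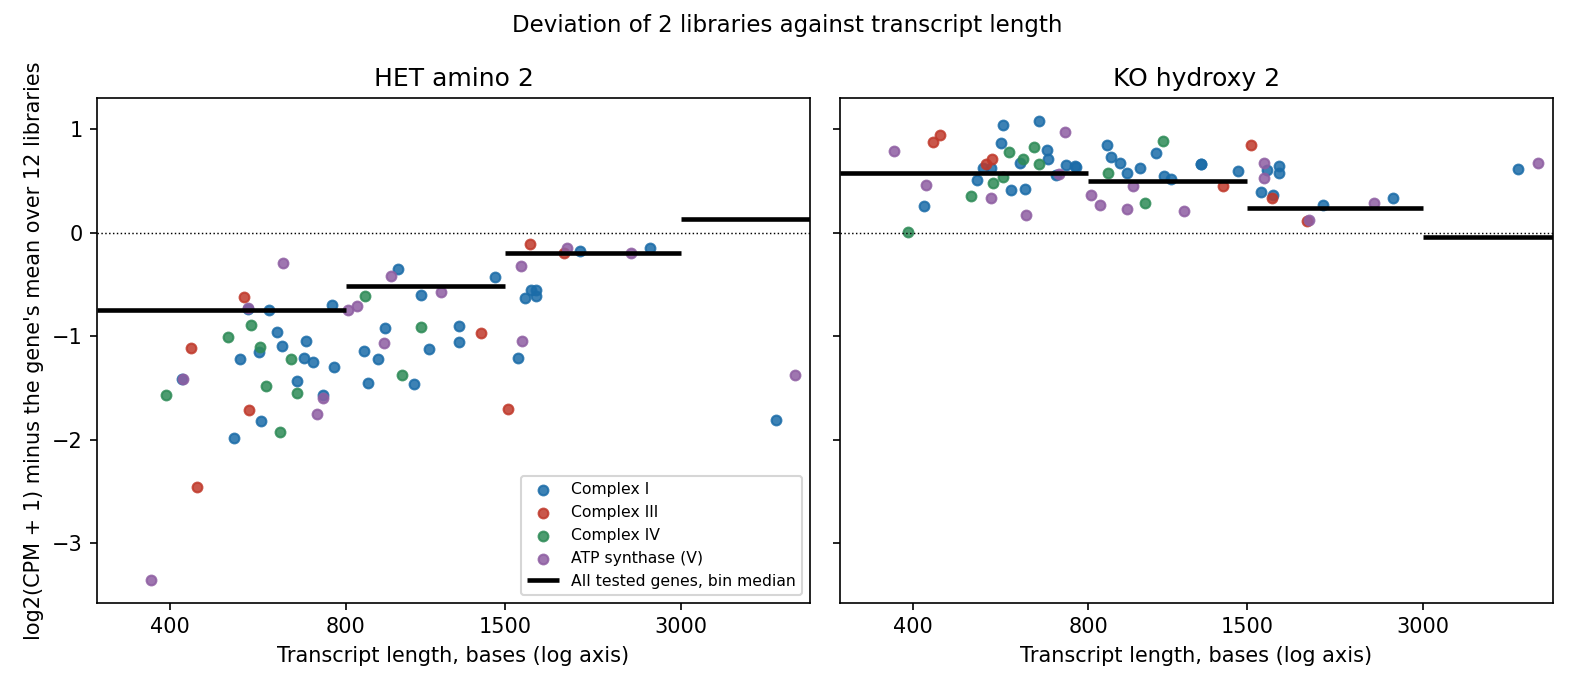
Deviation of log2(CPM + 1) from the gene's mean over 12 libraries against transcript length (log axis) in HET amino 2 and KO hydroxy 2, with 1 point per tested subunit coloured by complex. Black bars are medians of all tested genes in 4 length ranges, from −0.74 to 0.13 in HET amino 2 and from 0.57 to −0.04 in KO hydroxy 2.

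Of 11 tested chain genes that the rule leaves out, 6 were called higher in KO than in HET and 0 lower, at a median of 0.62 with 9 above 0 and 2 below: cytochrome c (Cycs, 0.97, adjusted p = 0.0144), Sdhb (0.50), Sdhc (0.62) and Sdhd (0.97) of complex II, Atpif1, the inhibitor of the ATP synthase (0.72), and 2010107E04Rik (0.70, adjusted p = 0.0253). Sdha, which holds the flavin of complex II, stood at 0.35 (adjusted p = 0.171), Cox4i1 at 0.69 (adjusted p = 0.0637) and Cyc1, the cytochrome of complex III, at 0.43 (adjusted p = 0.0868). The 2 below 0 were both near 1 to 2 CPM and not called, Cox4i2 at −0.12 (adjusted p = 0.809) and Ndufab1 at −0.02 (adjusted p = 0.964). Of 44 assembly factors, 7 were called higher and 0 lower, led by the copper chaperone Cox17, at 46.9 ± 3.16 CPM in WT, 21.6 ± 11.02 in HET and 61.2 ± 14.2 in KO (1.59, adjusted p = 0.0197), with Cox16, Cox14, Sdhaf1, Cox11, Coa3 and Coa5. Of 16 genes of the tricarboxylic acid cycle, 1 was called, Sucla2 (0.62, adjusted p = 0.0331), at a median of 0.30. Of 14 regulators of mitochondrial biogenesis 0 were called in limma, with 2 higher and 1 lower at an unadjusted p under 0.05, at a median of 0.06. Over all genes in this comparison, 3.44% were called higher and 13.3% were higher at an unadjusted p under 0.05, the latter near the share of the regulators. Esrra stood at 367 ± 34.2 CPM in WT, 238 ± 81.5 in HET and 341 ± 33.5 in KO (0.58, adjusted p = 0.0677), Ppargc1a at −0.36 (adjusted p = 0.117) and Nrf1 at 0.01 (adjusted p = 0.977).

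Ribosomal protein genes and cell markers were compared in the same way. Of 77 tested genes of the mitochondrial ribosome 17 were called higher in KO than in HET (median 0.56), and their sum ranged from 1330 CPM in HET amino 2 to 3790 in KO hydroxy 2. Of 62 of the cytosolic ribosome 2 were called higher and 1 lower (median 0.35), a share near that of all genes (3.44% higher), with sums from 3100 CPM in HET amino 2 to 9850 in KO hydroxy 2. The enterocyte markers summed to 39700 to 53900 CPM in WT, 27800 to 40400 in HET and 33800 to 55800 in KO. In KO against HET 0 of 14 were called, with 2 higher and 1 lower at an unadjusted p under 0.05, against 13.3% of all genes higher. The 10 epithelial markers summed to 4570 to 6750, 3750 to 6770 and 4600 to 6600 CPM, with HET amino 2 at 6770. Proliferation markers (15) summed to 263 to 414 CPM in WT, 398 to 563 in HET and 315 to 941 in KO, the highest in KO hydroxy 2. Smooth muscle markers (10) summed to 2740 to 7760, 1460 to 8030 and 1300 to 3930 CPM, and adipocyte markers (6) to 110 to 185, 27.7 to 153 and 104 to 125 CPM, the lowest in HET amino 2. In KO against HET, 0 of the epithelial, smooth muscle and B cell markers, 1 proliferation marker and 1 adipocyte marker were called in limma. Their medians were 0.16, −0.39, 0.32, 0.21 and 0.38, and 1 epithelial and none of the smooth muscle or B cell markers passed an unadjusted p of 0.05. The part of cell composition in the differences between subunits was not tested.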

How the data were processed

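The authors deposited 1 table of CPM values (count per 1 M reads) for 17112 genes, with 0.0001 added to each value. Partek, TopHat2 and build mm10 appear in the submitters' processing notes, while no source used here names the counting tool, the annotation or the strand setting. Per the labels, each library is 1 mouse, so p-values rest on the spread between animals. The fit draws that spread towards a trend over genes of like level. The added constant was subtracted. From the steps between low values, depth was 26.0 to 38.8 M reads. Of the values under 2 CPM, 93.2% to 94.5% per library lay within 0.05 of whole reads, too few to run a count test.

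The 14001 genes that reached 1 CPM in 2 or more libraries were fitted on log2(CPM + 1) with limma 3.58.1 in R 4.3.3 as 6 group means (eBayes with a trend, two-sided, 6 residual and 3.61 prior degrees of freedom), with Benjamini-Hochberg adjustment over all genes. This scale understates changes of low genes. The model was tested on simulated data with independent noise for each gene. Shifts shared by many genes of a library were not simulated, so that test cannot show how they affect the calls. Transcript lengths and 50-base words come from GENCODE M21 (GRCm38), and promoters from RefSeq. The YY1 letters were shortened after a longer form had been searched. The members, gene lists and rule were chosen with earlier results of these data known.

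Named subunits were the 3 called per complex with the smallest p, the tissue isoforms, and the 3 with the largest and the 3 with the smallest spread. A further 7 were listed as core or catalytic, of which Cox5a is an accessory subunit. Other genes named from a list were those called, or those with the smallest p. Ndufs3, Ndufs8, Ndufv2, Ndufa9, Atp5s, Cox4i1, Sdha and Nrf1, the low subunits and the leaders by level were named after their values were seen. Alternatives covered the pseudocount, the filter, the scaling, age, library weights, and libraries left out.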

Additional observations from a re-analysis of the deposited data

Results flagged for a closer look

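In 102 groups of 4 libraries checked for a value far from the rest, 6 were found, and chance alone flags about 5% of such groups. HET amino 2 lay far below the other HET libraries in the median log2(CPM + 1) level of complex I (5.322, others 5.946 to 6.014), complex III (5.994, others 7.395 to 7.683) and complex IV (5.898, others 6.749 to 6.853). WT amino 1 lay below the other WT libraries in the complex IV median (6.705, others 7.099 to 7.159). Ndufs6 stood at 63.95 CPM in WT hydroxy 1 against 75 to 75.3 in the other WT libraries. Uqcrfs1 stood at 299.1 CPM in KO amino 1 against 401 to 404.5 in the other KO libraries.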

How the results depend on the processing

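No paired analysis was possible because the labels give no replicate numbers that tie libraries of different groups to each other. For single named subunits, 592 of the recomputed values kept direction and side of the threshold, 159 lost the call, 45 gained it and 11 changed sign. The count of subunits called in KO against HET was 23. It became 38 with TMM scaling, 6 after rescaling to listed genes, 43 with age as a term, 8 with library weights, 43 with the GC trend removed, 2 with the length trend removed, and 0 in each of 3 fits: length trend with HET amino 2 left out, without WT hydroxy 1 and HET amino 2 (the libraries with high Fabp6), and without both KO amino libraries. Leaving out 1 library at a time gave 0 to 53, and in HET against WT 0 to 17 and for the hydroxy effect in HET 0 to 2. The counts over all genes in KO against HET (957) became 1651 (quantile), 1449 (TMM), 620 (rescaled, 199 higher and 421 lower against 481 and 476), 1646 (age), 280 (weights), 451 (without older HET mice), 2 (without the Fabp6 libraries), 2 (without KO amino), 334 (length), 1644 (GC) and 143 (length, without HET amino 2), and 1 to 1396 over single libraries left out. In KO against WT, 4 genes became 1 (pseudocount 0.25), 10 (pseudocount 5), 1 (mean of at least 5 CPM), 23 (quantile), 11 (TMM), 23 (age), 32 (weights), 1 (Fabp6 libraries), 14 (length) and 16 (GC), and 1 to 14 over single libraries left out. In HET against WT, 0 became 1 (no filter), 1 (rescaled), 3 (age), 1 (weights) and 1 (older HET mice), and 0 to 109 over single libraries. With no filter the hydroxy effect in KO called 2 genes and its difference from WT 1. Over single libraries left out, the genes called were 0 to 2 for the mean hydroxy effect, 0 to 6 in HET, 0 to 4 in KO and 0 to 2 for the KO and WT difference.

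The medians over subunits moved by more than the spread between replicates (0.241) in these cases. With the length trend removed they were 0.36 (KO against HET), −0.26 (HET against WT), 0.0235 (mean hydroxy effect), 0.13 (in HET), −0.00714 (in KO) and 0.078 (its difference between KO and WT), and with HET amino 2 also left out 0.28 (KO against HET) and −0.19 (HET against WT). Without the older HET mice the hydroxy effect in HET was 0.96 and its difference from WT 0.92, and without the Fabp6 libraries 0.17 and 0.13. Over single libraries these were 0.17 to 0.90 and 0.175 to 0.89. Ndufa4l2 (0.01) changed sign with pseudocount 5 (−0.0098), rescaled (−0.0426), without the Fabp6 libraries (−0.36), without KO amino (−0.15), with the length trend removed (−0.36) and with HET amino 2 also left out (−0.61), and ranged from −0.36 to 0.39 over single libraries. Uqcr11 was −0.12 with the length trend removed and HET amino 2 left out. Length and GC settings were chosen after seeing the data, and the cause of these shifts was not tested. With 2 libraries per group and depth recovered only approximately, subunits near 1 CPM carry the least information.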
